A study of Mus musculus with 18 samples.

Results

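The 10 regulators of blood stem and progenitor cells were followed across sorted bone marrow monocytes and neutrophils with and without Zeb2, a zinc-finger repressor. They are the transcription factors Myb, Erg, Gata2, Runx1, Meis1 and Hoxa9, the receptors Kit and Flt3, and the surface glycoproteins Cd34 and Cd93. Each was taken as the probe set annotated to that symbol alone, and each of the 10 had 1 such probe set among 19938 genes named in all. Of the 10, 9 passed a filter on low values and entered the tests of 13387 genes, and Cd34 did not.

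Expression was measured on 18 Affymetrix arrays, 9 of monocytes with high surface Ly-6C and 9 of neutrophils, all from mice on the C57BL/6 background. Zeb2-deficient mice carried Zeb2(fl/fl) with the Mx1-Cre(tg) transgene and controls carried Zeb2(fl/fl) alone, so both genotypes had floxed Zeb2 alleles. Both were injected with poly(I:C), an RNA analogue that triggers interferon release, in 2 doses of 150 µg within 48 h, and were sampled 3 weeks after. Per cell type the arrays comprised 4 of Zeb2-deficient mice (replicates 1, 2, 3 and 4), 4 of poly(I:C)-treated controls (replicates 1, 2, 4 and 5) and 1 of an untreated control. The Mx1 promoter answers to interferon in many cell types, so Cre was not limited to the cells sorted here. Since no control carried Cre, an effect of the recombinase and one of losing Zeb2 cannot be told apart. Nothing in the labels ties the arrays to different animals, so p-values reflect only how these samples scatter, and that scatter may be technical.

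Stem and early progenitor cells keep their identity through a small circuit of transcription factors, in which Erg, Runx1 and Gata2 act together, and through Myb, which supports proliferation of immature cells and normally falls as they mature. Kit and Flt3 are receptor tyrosine kinases for stem cell factor and Flt3 ligand. Kit marks stem cells, early progenitors and mast cells, whereas Flt3 marks multipotent progenitors and the precursors of dendritic cells. Hoxa9 and Meis1 are homeobox partners best known from self-renewing progenitors and acute myeloid leukaemia.

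Levels are deposited log2 intensities, so a difference of 1 is a doubling, and the level of one probe set is not compared with that of another. The 40th percentile of an array, used as a mark of a dim signal, lay at 4.28 to 4.37 in monocytes and at 4.40 to 4.50 in neutrophils. Monocyte marker genes, which are not the markers used for sorting, separated the cell types, and neutrophil marker genes are given further on. The mean of 9 Ly-6C(hi) monocyte genes (Csf1r, Fn1 and F13a1 the brightest) was 8.85 to 10.19 across poly(I:C)-treated monocyte arrays and 4.69 to 4.91 across poly(I:C)-treated neutrophil arrays. Zeb2 itself read 8.74 to 9.84 in Zeb2-deficient monocytes and 9.86 to 10.08 in control monocytes, against 7.10 to 8.25 in Zeb2-deficient and 6.86 to 7.54 in control neutrophils. Its probe set covers the whole transcript and does not check the deletion, so genotypes below are those of the labels. Zeb2-deficient monocyte replicate 2 stood apart from the other 3 of its group in several members and in the promyelocyte list given further on. Calls of members that move without it are given both ways. The deposited order runs through the poly(I:C)-treated groups once and then again, with both untreated arrays in the first run. The 10 arrays of the first run and the 8 of the second are called array set 1 and array set 2. In bulk samples, fewer cells of a type and less RNA per cell cannot be told apart.

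In monocytes, 3 of the 9 members tested were higher in Zeb2-deficient samples than in controls, Myb, Erg and Kit, and 1 was lower, Flt3. The other 5, Runx1, Gata2, Meis1, Hoxa9 and Cd93, did not pass the threshold (limma, Benjamini-Hochberg adjusted p below 0.05 over all genes tested). Of all genes tested, 7.54% passed, 5.11% higher and 2.44% lower. In neutrophils none of the 9 passed, where 0.120% of all genes did. Within the circuit of Erg, Runx1 and Gata2, Erg passed in monocytes and its 2 partners did not.

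The promoters of the 4 members that passed in monocytes are shown because Zeb2 is known to bind E-box elements, and because these members are compared below with regulators that have sites of their own. Each is the 250 bases upstream of a RefSeq transcript start on GRCm38.p6, read 5′ to 3′ on the strand of the gene, with motif matches in capitals. Of the 10 members, 9 had an entry, with 14 promoters in all, and Cd93 had none. The array does not say which start was used. Promoters at Erg start 2 and Kit start 2 are not printed, and they held none of the motifs searched below. Myb lies on the minus strand with this stretch at chr10:21160985-21161234, Kit on the plus strand at chr5:75574737-75574986, and Flt3 on the minus strand at chr5:147400490-147400739. For Erg, on the minus strand, the stretch before start 1 is chr16:95586594-95586843 and that before start 3 is chr16:95459349-95459598.
Myb: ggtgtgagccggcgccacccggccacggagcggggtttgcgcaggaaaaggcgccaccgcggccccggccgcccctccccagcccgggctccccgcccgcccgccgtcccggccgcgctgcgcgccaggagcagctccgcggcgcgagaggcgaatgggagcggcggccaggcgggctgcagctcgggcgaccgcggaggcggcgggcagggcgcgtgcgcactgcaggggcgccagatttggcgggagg
Kit: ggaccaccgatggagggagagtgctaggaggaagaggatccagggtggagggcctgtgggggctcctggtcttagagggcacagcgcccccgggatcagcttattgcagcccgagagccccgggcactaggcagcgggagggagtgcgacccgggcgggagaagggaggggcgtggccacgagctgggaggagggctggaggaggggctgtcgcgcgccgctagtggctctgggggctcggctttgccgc
Erg, start 1: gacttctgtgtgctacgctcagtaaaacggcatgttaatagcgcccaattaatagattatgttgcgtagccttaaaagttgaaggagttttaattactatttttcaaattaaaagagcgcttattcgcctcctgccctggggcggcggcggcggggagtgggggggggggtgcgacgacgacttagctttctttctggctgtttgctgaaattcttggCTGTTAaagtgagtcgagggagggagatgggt
Erg, start 3: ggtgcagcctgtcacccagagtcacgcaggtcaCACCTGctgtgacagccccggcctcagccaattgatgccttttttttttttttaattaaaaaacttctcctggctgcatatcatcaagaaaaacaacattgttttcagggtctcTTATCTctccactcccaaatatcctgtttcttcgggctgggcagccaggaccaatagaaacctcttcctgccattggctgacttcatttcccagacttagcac
Flt3: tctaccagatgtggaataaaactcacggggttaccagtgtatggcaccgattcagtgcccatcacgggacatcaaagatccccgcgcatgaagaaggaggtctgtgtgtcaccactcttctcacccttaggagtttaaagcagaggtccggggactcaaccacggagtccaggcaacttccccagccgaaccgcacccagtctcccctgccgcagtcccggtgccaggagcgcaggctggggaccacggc

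Both strands were searched for 4 motifs, and no motif overlapped another in these stretches. The E-box that Zeb2 is known to bind was written as CACCTG, and it stood in 2 of the 14 member promoters and in 17.2% of all 32851 promoters of the table. The motif of Myb, written as TAACNG, stood in 4 of the 14 and in 19.8% of all. That of Runx1, written as TGTGGT, stood in 1 of the 14 and in 14.0% of all, and that of Gata2, with the letters AGATAA, in 1 and in 9.99%. Promoters of Myb, Kit and Flt3 held none of the 4. The Erg promoter at start 1 held the Myb motif on the opposite strand, 32 bases before the start. The one at start 3 held the E-box 217 bases before the start and the Gata2 motif, on the opposite strand, 103 bases before it. The other member promoters with a match were one of Runx1 (E-box and Myb motif), that of Meis1 (Runx1 and Myb motifs) and that of Cd34 (Myb motif). A match is a description of the letters and not of a bound site.

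Myb, the transcription factor of cycling immature cells, had levels of 8.31, 6.92, 8.61 and 8.92 in Zeb2-deficient monocytes, against 5.87, 5.89, 6.44 and 6.21 in control monocytes. Every deficient array lay above every control array, with replicate 2 the lowest of its group. The means were 8.19 ± 0.88 and 6.10 ± 0.27 (SD, n = 4 each), a difference of 2.09 ± 0.29 (SE), or 4.26-fold (limma, adjusted p = 1.39e-04). Untreated monocytes read 5.97, within the range of the treated controls. In neutrophils Myb read 7.33, 7.14, 7.02 and 6.91 in Zeb2-deficient samples and 7.03, 7.04, 7.004 and 7.20 in controls. The neutrophil groups overlapped, with a difference of 0.03 ± 0.29 (SE, 95% interval -0.57 to 0.63, adjusted p = 0.999). The change in monocytes exceeded that in neutrophils by 2.06 ± 0.41 (SE, limma, adjusted p = 0.00758).

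Erg, an ETS-family factor needed for stem cell maintenance, had levels of 6.82, 6.05, 7.13 and 7.08 in Zeb2-deficient monocytes, against 5.08, 4.77, 5.60 and 4.92 in control monocytes. The groups did not overlap, and replicate 2 was again the lowest deficient array. The means were 6.77 ± 0.50 and 5.09 ± 0.36 (SD, n = 4 each), a difference of 1.68 ± 0.21 (SE), or 3.20-fold (limma, adjusted p = 7.35e-05). Untreated monocytes read 4.79. Neutrophils had more Erg than monocytes throughout, at 7.90, 7.95, 7.48 and 7.55 in Zeb2-deficient samples and 7.85, 8.09, 7.81 and 7.80 in controls. All 4 Zeb2-deficient monocyte arrays lay above every control monocyte array and below every neutrophil array. Between neutrophil groups the difference was -0.17 ± 0.21 (SE, 95% interval -0.62 to 0.28, adjusted p = 0.999). The monocyte change exceeded the neutrophil change by 1.85 ± 0.30 (SE, limma, adjusted p = 0.00221).

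Kit, the receptor for stem cell factor, had levels of 6.33, 5.40, 7.02 and 7.36 in Zeb2-deficient monocytes, against 4.20, 4.57, 4.92 and 4.40 in control monocytes. The groups did not overlap. In controls the signal was dim, above the array's 40th percentile on 3 of 4 arrays, and in untreated monocytes (4.08) it was below it. The means were 6.53 ± 0.87 and 4.52 ± 0.30 (SD, n = 4 each), a difference of 2.01 ± 0.29 (SE), or 4.02-fold (limma, adjusted p = 2.56e-04). Neutrophil levels were 6.58, 6.38, 5.96 and 6.35 in Zeb2-deficient samples and 6.20, 6.16, 6.11 and 5.75 in controls, and these overlapped (difference 0.27 ± 0.29 SE, 95% interval -0.35 to 0.88, adjusted p = 0.999). The monocyte change exceeded the neutrophil change by 1.74 ± 0.42 (SE, limma, adjusted p = 0.0283). That last call did not hold within array set 1 (adjusted p = 0.322) or when any 1 of 9 arrays was left out (adjusted p 0.0512 to 0.0770). Those were Zeb2-deficient monocyte replicate 3, control monocyte replicates 1, 2 and 5, Zeb2-deficient neutrophil replicates 3 and 4, and control neutrophil replicates 1, 2 and 4.

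Flt3, the receptor of multipotent progenitors and dendritic cell precursors, moved the other way. Its levels were 5.14, 6.19, 5.43 and 4.95 in Zeb2-deficient monocytes, against 6.11, 6.57, 6.46 and 6.07 in control monocytes. Replicate 2, at 6.19, lay inside the control range and the other 3 deficient arrays lay below every control. The means were 5.43 ± 0.54 and 6.30 ± 0.25 (SD, n = 4 each), a difference of -0.88 ± 0.20 (SE), or 1.84-fold lower (limma, adjusted p = 0.0107). The call was lost within array set 1 (-0.68, adjusted p = 0.483) and when only the monocyte arrays compared were fitted (adjusted p = 0.0761). Neutrophils had less Flt3, at 4.80, 4.98, 4.55 and 4.76 in Zeb2-deficient samples and 4.61, 4.91, 4.72 and 4.77 in controls (difference 0.02 ± 0.20 SE, adjusted p = 0.999). The difference between the 2 changes, -0.90 ± 0.28 (SE), missed the threshold (limma, adjusted p = 0.115) and passed it without Zeb2-deficient monocyte replicate 2 and with array weights.

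**Figure D1:**
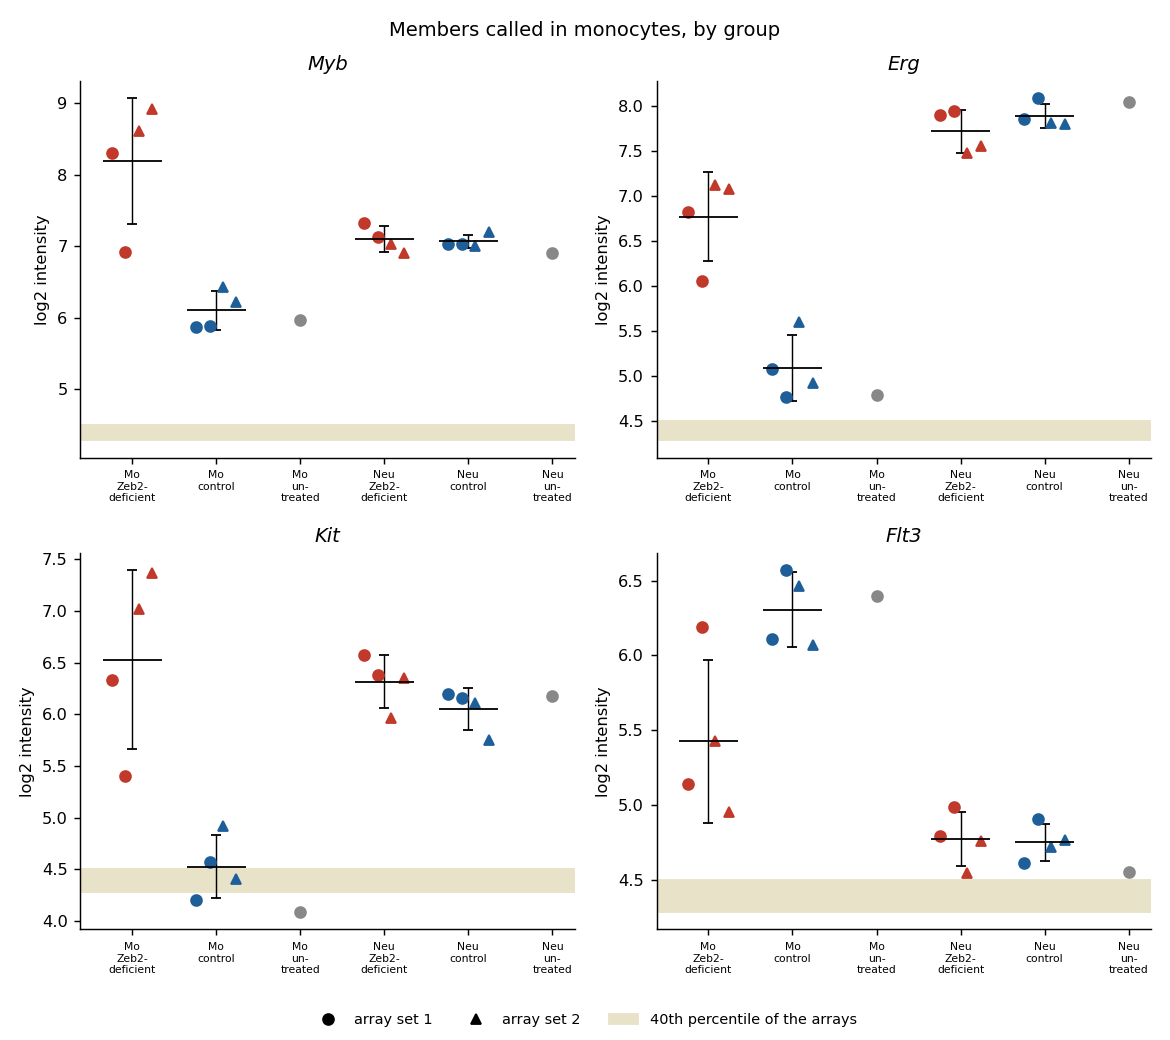
Log2 intensity (y axis) of Myb, Erg, Kit and Flt3 in 9 monocyte (Mo) and 9 neutrophil (Neu) arrays, by group (x axis). Points are arrays (circles, array set 1; triangles, array set 2), black lines are means ± SD, and the tan band spans the 40th percentiles of all arrays (4.28 to 4.50). Zeb2-deficient monocytes lie above control monocytes in Myb, Erg and Kit without overlap, and 3 of 4 lie below them in Flt3.

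The 4 Zeb2-deficient monocyte arrays were spread widely in these members. The SD of Myb was 0.88 and that of Kit 0.87, and 0.71% and 0.74% of all genes tested had an SD at least as large in that group, where the median gene had 0.206. Runx1, in the same arrays, had an SD of 0.05, and 97.8% of genes had one at least as large. By array set, Myb differed between Zeb2-deficient and control monocytes by 1.74 in set 1 and 2.44 in set 2. Erg differed by 1.52 and 1.84, Kit by 1.48 and 2.53, and Flt3 by -0.68 and -1.08, set 1 first in each. The calls for Myb, Erg and Kit in monocytes held in 29 of 29 alternatives, both sets and each left-out array included.

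Runx1, the DNA-binding subunit of core binding factor, read 8.19, 8.31, 8.29 and 8.25 in Zeb2-deficient monocytes and 8.03, 8.08, 8.11 and 8.18 in control monocytes. The groups did not overlap, yet the difference was only 0.16 ± 0.11 (SE) and did not pass (limma, adjusted p = 0.459). The untreated monocyte array, at 8.44, was above all of them. Neutrophils read 7.74, 7.73, 7.89 and 7.83 in Zeb2-deficient samples and 7.56, 7.59, 8.01 and 7.71 in controls (difference 0.08 ± 0.11 SE, adjusted p = 0.999).

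Gata2, a zinc-finger factor of stem cells and of the mast cell and megakaryocyte lineages, read 4.61, 4.46, 4.33 and 4.68 in Zeb2-deficient monocytes and 4.57, 4.41, 4.53 and 4.66 in control monocytes. In neutrophils it read 5.03, 4.66, 4.997 and 4.76 in Zeb2-deficient samples and 4.91, 4.74, 4.898 and 4.99 in controls. The groups overlapped in both cell types, and the differences were -0.02 in each (limma, adjusted p = 0.940 in monocytes and 0.999 in neutrophils). The 95% interval in monocytes ran from -0.26 to 0.21. These levels were close to the 40th percentile, although above it on all 18 arrays.

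The homeobox genes were dim. Meis1 read 4.65, 4.68, 4.53 and 4.27 in Zeb2-deficient monocytes and 4.83, 4.80, 5.01 and 4.89 in control monocytes, without overlap. The difference of -0.35 ± 0.15 (SE) had an unadjusted p of 0.0352 and did not pass after adjustment (limma, adjusted p = 0.202). It was above the 40th percentile on 8 of 9 monocyte arrays and 2 of 9 neutrophil arrays. Hoxa9 was above it on 2 monocyte and 6 neutrophil arrays, at 4.09 to 4.48 in Zeb2-deficient and 4.09 to 4.26 in control monocytes, and at 4.28 to 4.57 in Zeb2-deficient and 4.09 to 4.52 in control neutrophils. Its differences were 0.08 ± 0.12 in monocytes and 0.15 ± 0.12 in neutrophils (SE, limma, adjusted p = 0.777 and 0.999). Groups overlapped in both cell types.

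Cd93, a lectin-like glycoprotein of early progenitors that monocytes and endothelial cells also carry, was bright in monocytes. It read 7.41, 8.40, 8.14 and 7.56 in Zeb2-deficient monocytes and 7.91, 8.38, 8.25 and 8.32 in control monocytes. The deficient arrays spread to both sides of the control range, with 2 below every control and replicate 2 above them all (difference -0.34 ± 0.19 SE, limma, adjusted p = 0.366). In neutrophils it read 6.49, 6.54, 6.67 and 7.02 in Zeb2-deficient samples and 6.14, 6.06, 6.39 and 6.50 in controls, a difference of 0.41 ± 0.19 (SE) with an unadjusted p of 0.05001 and an adjusted p of 0.972. The 2 differences ran in opposite directions, -0.74 ± 0.27 (SE) apart (limma, adjusted p = 0.202, and 0.0310 without Zeb2-deficient monocyte replicate 2).

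Cd34, the sialomucin that marks stem and progenitor cells, was above the 40th percentile on 1 of 18 arrays, the untreated monocytes at 4.49. It read 3.40, 3.78, 3.30 and 3.67 in Zeb2-deficient monocytes and 4.30, 3.87, 3.70 and 3.90 in control monocytes. Neutrophil arrays lay between 3.51 and 3.95 in Zeb2-deficient samples and between 3.58 and 3.82 in controls. With no filter on low values the monocyte difference was -0.40 ± 0.14 (SE, limma, adjusted p = 0.107). The level of Cd34 was thus at the dim end on every poly(I:C)-treated array, those high in Myb, Erg and Kit and those of controls alike.

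**Figure D2:**
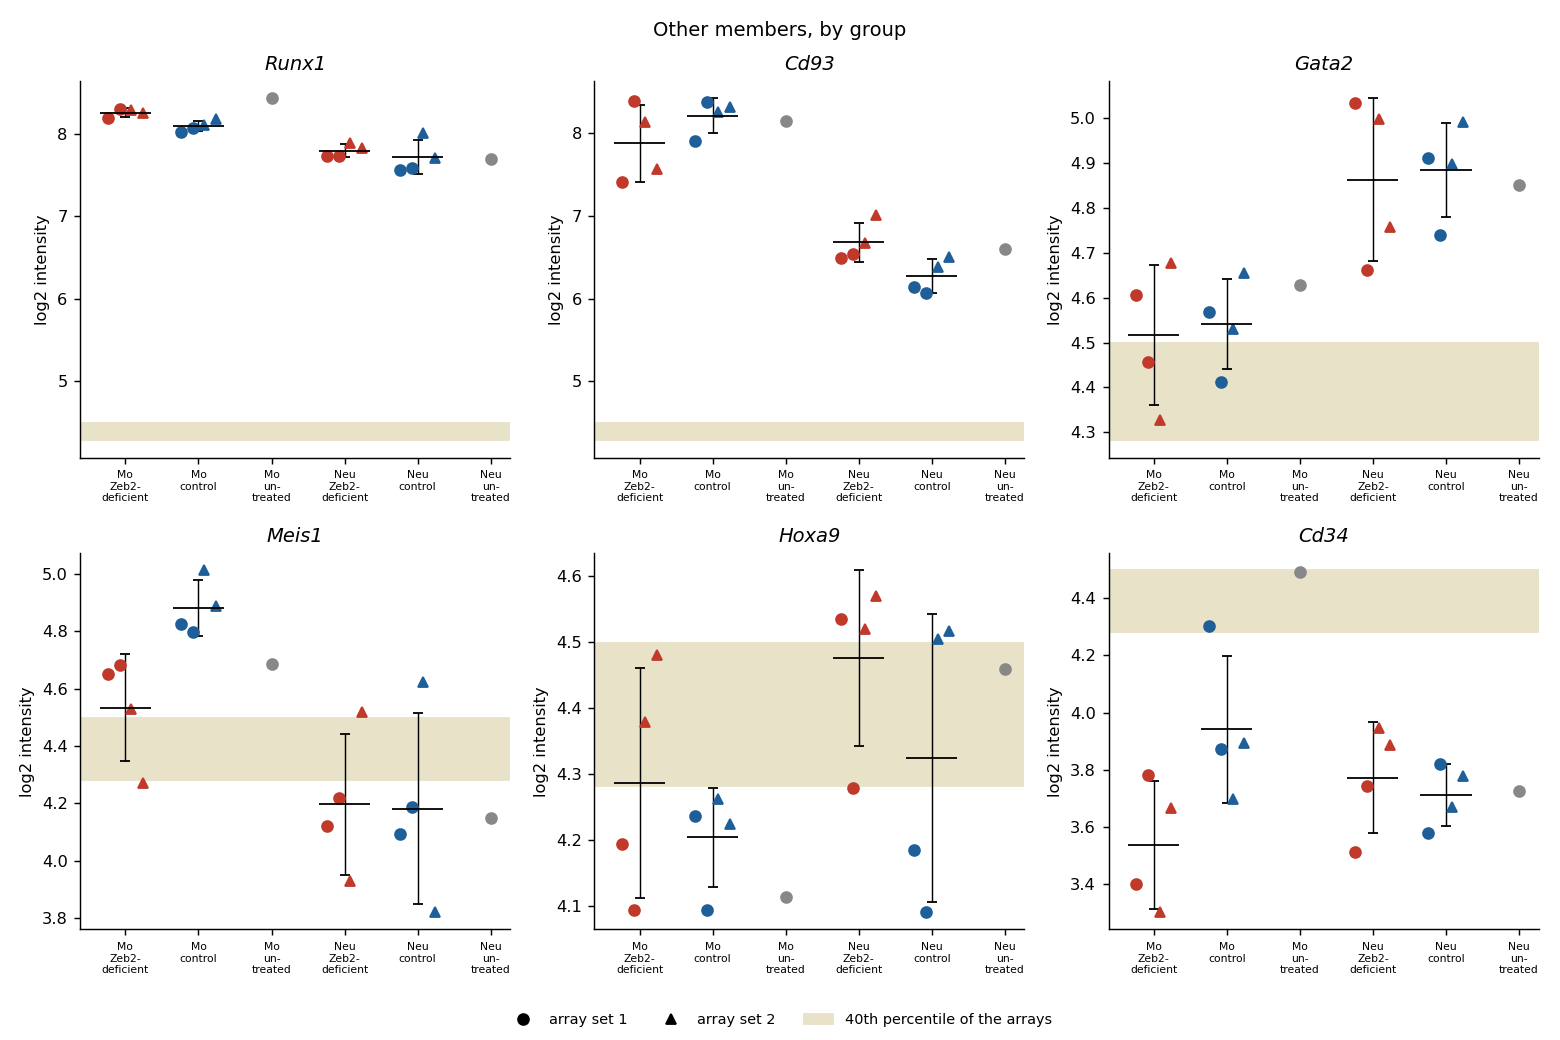
Log2 intensity (y axis) of Runx1, Cd93, Gata2, Meis1, Hoxa9 and Cd34 by group (x axis), with points, lines and band as in the plot of Myb, Erg, Kit and Flt3. Runx1 and Cd93 lie well above the band, while Gata2, Meis1, Hoxa9 and Cd34 lie near, in or below it.

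Counted over the 9 members tested, 4 passed in monocytes, and for 5 the arrays of the groups did not overlap (Myb, Erg, Kit, Runx1 and Meis1), against 10% of all genes tested. The median difference of the 9 was 0.08, beside -0.03 over all genes. In neutrophils 0 of 9 passed with limma, and 0 had an unadjusted p below 0.05, while 16 of 13387 genes passed and 683 had such a p. The median over members was 0.03, beside -0.01 over all genes. The difference between the changes in the cell types passed for 3 of 9 (Myb, Erg and Kit), where 2.68% of all genes did. That count of 3 was 0 within array set 1, 5 without Zeb2-deficient monocyte replicate 2, which adds Flt3 and Cd93, and 2 without any 1 of the 9 arrays named for Kit.

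**Figure D3:**
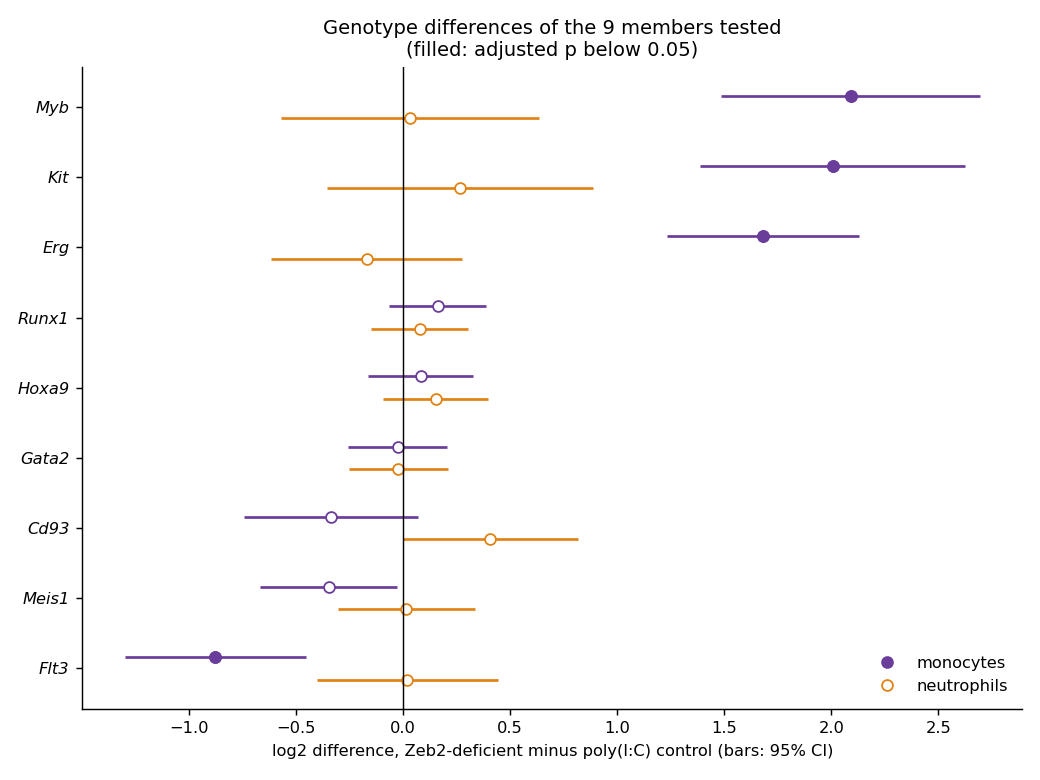
Log2 difference, Zeb2-deficient minus poly(I:C) control (x axis), for the 9 members tested (y axis), in monocytes (purple) and neutrophils (orange). Bars are 95% confidence intervals from limma and filled points passed adjusted p below 0.05. Myb, Kit and Erg lie at 1.68 to 2.09 and Flt3 at -0.88 in monocytes, and all 9 neutrophil intervals reach or include 0.

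The cell types themselves differed in most members. Between control monocytes and control neutrophils 8 of 9 passed, 4 higher and 4 lower in monocytes, where 58.6% of all genes passed, 29.9% higher and 28.7% lower. Monocytes were higher in Cd93 by 1.94 ± 0.19, Flt3 by 1.55 ± 0.20, Meis1 by 0.70 ± 0.15 and Runx1 by 0.38 ± 0.11 (SE). They were lower in Erg (-2.80 ± 0.21), Kit (-1.53 ± 0.29), Myb (-0.97 ± 0.29) and Gata2 (-0.34 ± 0.11, SE). Limma's adjusted p-values for these 8 were at most 0.0127, and Hoxa9 did not pass (-0.12, adjusted p = 0.382). The Gata2 difference was lost within each array set (adjusted p = 0.139 and 0.113) and that of Runx1 within set 2 (0.129).

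Among Zeb2-deficient samples the order of the cell types was changed for Myb. Zeb2-deficient monocytes had 1.09 ± 0.29 (SE) more Myb than Zeb2-deficient neutrophils (limma, adjusted p = 0.00335), whereas control monocytes had less than control neutrophils. Of the 4 deficient monocyte arrays, 3 lay above all 9 neutrophil arrays, and replicate 2, at 6.92, did not. Within array set 1, which holds replicate 2, this difference did not pass (0.39, adjusted p = 0.355). Erg remained lower in deficient monocytes (-0.95 ± 0.21 SE, adjusted p = 9.62e-04), though not past the threshold within set 2 (-0.42, adjusted p = 0.105).

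Kit no longer differed past the threshold between Zeb2-deficient monocytes and Zeb2-deficient neutrophils (0.21 ± 0.29 SE, limma, adjusted p = 0.536). Its direction turned between the array sets. Within set 1 Zeb2-deficient monocytes had less Kit (-0.61, not past the threshold), whereas within set 2 they had more (1.04, past it), as they did without monocyte replicate 2. Cd93 (1.20), Flt3 (0.66) and Runx1 (0.46) were higher in deficient monocytes, Gata2 (-0.35) was lower, and Meis1 (0.34, adjusted p = 0.0631, past the threshold in 6 of 28 alternatives) and Hoxa9 (-0.19, adjusted p = 0.162) did not pass. The Flt3 call was lost within set 1 (adjusted p = 0.0520) and that of Gata2 within each set (0.157 and 0.0867). In all 6 of 9 passed, 4 higher and 2 lower, where 62.1% of all genes did, 30.0% higher and 32.1% lower. These contrasts share arrays with the genotype comparisons.

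By group mean, Myb ran from Zeb2-deficient monocytes down through Zeb2-deficient and control neutrophils, each overlapping the next, to control monocytes, which stood apart. Erg ran from both neutrophil groups, which overlapped, through Zeb2-deficient monocytes to control monocytes, with no overlap at the last 2 steps. Kit ran from Zeb2-deficient monocytes through both neutrophil groups, each overlapping the next, to control monocytes, which stood apart. Flt3 ran the other way, highest in control monocytes, then Zeb2-deficient monocytes, then both neutrophil groups, each overlapping the next.

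Single untreated arrays allow no test of poly(I:C). Both untreated arrays belong to array set 1, whereas the treated controls come from both sets. Treated control monocytes had a mean Kit of 4.52, against 4.08 untreated, a mean Runx1 of 8.10, against 8.44, and a mean Meis1 of 4.88, against 4.69. For these 3 of 9 tested members the untreated array lay outside the 4 treated controls, as it did for 37.9% of all genes tested. In neutrophils these were Myb (7.07 treated and 6.90 untreated), Flt3 (4.75 and 4.55) and Cd93 (6.27 and 6.60), again 3 of 9, beside 36.9% of all genes.

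Related genes were read from 6 lists, chosen with earlier results of these data known. For the counts that follow, 5.11% of all genes tested were higher and 2.44% lower in Zeb2-deficient monocytes. The partners of Erg, Runx1 and Gata2 in the stem cell circuit, Tal1, Lyl1, Lmo2 and Fli1, all 4 tested, gave 0 changes in Zeb2-deficient monocytes. Fli1, an ETS relative of Erg, read 9.06 in Zeb2-deficient and 8.90 in control monocytes (limma, adjusted p = 0.390), and Lyl1 8.25 and 8.45 (0.447). Of 19 Hox, Meis and Pbx genes, 7 were tested and 0 passed. Without Zeb2-deficient monocyte replicate 2, 1 of them was lower. Pbx3, a homeobox cofactor, differed by -0.34 (adjusted p = 0.238) and Pbx2 by 0.32 (0.240). Between control cell types, Lyl1 was higher in monocytes by 0.84 and Lmo2 by 0.37, and of the homeobox genes Pbx3 was higher by 1.15 while Pbx2 (-1.74), Hoxb5 (-0.41) and Hoxa4 (-0.37) were lower. The calls of Lmo2, Hoxb5 and Hoxa4 were lost within each array set.

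Among 14 tested relatives of the members' own families, 2 were higher and 2 lower in Zeb2-deficient monocytes. Ets1, another ETS factor, read 5.81 to 7.06 in Zeb2-deficient and 4.59 to 4.83 in control monocytes, a difference of 1.96 ± 0.22 (SE, limma, adjusted p = 2.36e-05) that held in 29 of 29 alternatives. Like Erg it was brighter in neutrophils (7.40 ± 0.38 in Zeb2-deficient and 7.60 ± 0.12 in control neutrophils, SD, n = 4 each). Ets2 was higher by 0.83 (adjusted p = 0.0345). The receptor kinases Csf1r, the receptor of macrophage colony-stimulating factor (-0.87, adjusted p = 0.0275), and Flt1, a vascular endothelial growth factor receptor (-0.55, adjusted p = 0.0464), were lower, as Flt3 was. The calls of Ets2, Csf1r and Flt1 were lost in 7, 8 and 17 of 29 alternatives, that of Flt1 also with the replicate block. Without single monocyte arrays the list gave 1 to 3 higher (1 without control replicate 1, 3 without deficient replicate 2) and 0 to 3 lower (0 without deficient replicate 1, 3 without deficient replicate 2).

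Of 10 tested stem cell surface markers, 1 passed in Zeb2-deficient monocytes, close to the share of 7.54% over all genes tested. Prom1, the pentaspan membrane protein CD133, read 5.40 to 7.10 in Zeb2-deficient and 3.99 to 5.01 in control monocytes (difference 1.84 ± 0.28 SE, limma, adjusted p = 4.22e-04). Neutrophils had 6.52 to 7.18 in Zeb2-deficient samples and 6.81 to 7.30 in controls, so every neutrophil array lay above every control monocyte array, as with Erg. Control cell types differed the other way in Cd48, a ligand of Cd244 on most leukocytes but not on stem cells, which was higher in control monocytes than in control neutrophils by 5.22.

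Of 24 tested further regulators of stem and progenitor cells, 4 were higher in Zeb2-deficient monocytes and 0 lower. Without deficient replicate 2, 1 of them was lower. Myc, a driver of cell growth, differed by 1.54 ± 0.23 (SE, limma, adjusted p = 3.26e-04). The chromatin-associated factor Dach1 differed by 1.50 ± 0.28 (adjusted p = 0.00234), the zinc-finger repressor Gfi1 by 1.10 ± 0.16 (2.40e-04) and the chromatin organiser Satb1 by 1.09 ± 0.17 (SE, 4.30e-04). The calls of Gfi1 and Satb1 were lost within array set 1 (adjusted p = 0.0583 and 0.0592). Mean Myc was 7.83 in Zeb2-deficient and 6.29 in control monocytes, beside 4.84 in Zeb2-deficient and 4.45 in control neutrophils. Mean Dach1 was 6.13 in Zeb2-deficient and 4.63 in control monocytes, beside 7.98 in Zeb2-deficient and 8.30 in control neutrophils, so the 2 genes were ordered oppositely between cell types. Between control cell types 15 of the 24 were lower in monocytes and 4 higher, beside 28.7% and 29.9% of all genes tested. Without control monocyte replicate 2, 9 were lower.

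Of 19 tested genes for Kit and Flt3 ligands and signalling, 0 passed in Zeb2-deficient monocytes, and 3 were lower without deficient replicate 2. The adaptor Gab2 differed by -0.55 (limma, adjusted p = 0.0856) and the kinase subunit Pik3cd by -0.38 (0.121). The ligand Kitl did not pass the filter. All 6 lists gave 0 changes in neutrophils, where 0.120% of all genes tested passed. The gene closest to the threshold in neutrophils among those named was Trib2 (0.27, limma, adjusted p = 0.890). Median differences of the 6 lists in monocytes ran from -0.13 (ligands and signalling) to 0.10 (Hox, Meis and Pbx), beside -0.03 over all genes.

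Markers of other cells moved with Myb, Erg and Kit. These lists too were chosen with earlier results of these data known. The shares over all genes tested were 5.11% higher and 2.44% lower in Zeb2-deficient monocytes. Of 10 promyelocyte genes (Cebpe, Gstm1 and Mpo the brightest), 9 were higher in Zeb2-deficient monocytes and 0 lower. Their mean was 10.2, 8.94, 10.5 and 10.7 in deficient arrays and 7.09, 7.02, 8.80 and 8.16 in control arrays. Of 12 mature neutrophil genes (S100a9, S100a8 and Camp the brightest), 11 were higher, with array means of 10.3 to 11.16 in Zeb2-deficient and 7.36 to 8.88 in control monocytes. Of 9 Ly-6C(hi) monocyte genes 4 were lower, with array means of 8.85 to 9.92 in Zeb2-deficient and 9.94 to 10.19 in control monocytes (8 lower without deficient replicate 2, 1 without control replicate 2). Of 13 cell cycle genes 6 were higher, at 7.97 to 8.96 and 7.64 to 7.74 (12 higher without deficient replicate 2). Their part in the differences of Myb, Erg, Kit and Flt3 was not tested.

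The array lowest in Myb, Erg and Kit and highest in Flt3 among Zeb2-deficient monocytes, replicate 2, was also the lowest in promyelocyte (8.94), mature neutrophil (10.3) and cell cycle (7.97) genes and the highest in monocyte genes (9.92). Among control monocytes the 2 arrays of set 2 had the higher promyelocyte means (8.80 and 8.16) and the higher Myb (6.44 and 6.21). In Erg and Kit this held for replicate 4 (5.60 and 4.92) and not for replicate 5 (4.92 and 4.40). Erg was higher in replicate 1 of set 1 (5.08) than in replicate 5, and Kit was higher in replicate 2 of set 1 (4.57). In neutrophils the promyelocyte mean was low, 5.50 to 6.60 in Zeb2-deficient samples and 5.50 to 5.71 in controls. There Erg was at its highest, Myb at 6.90 to 7.33 and Kit at 5.75 to 6.58. Cebpe of that list went the other way, with means of 8.90 in Zeb2-deficient and 8.95 in control neutrophils. Its means in monocytes were 8.54 in Zeb2-deficient and 6.25 in control samples. Every neutrophil array read above every control monocyte array in Myb, Erg and Kit and below it in the promyelocyte mean. Among poly(I:C)-treated monocyte arrays the highest Myb and Kit stood with the highest promyelocyte means. The mature neutrophil list read 12.18 to 12.3 in Zeb2-deficient and 12.28 to 12.34 in control neutrophils. Like Erg, it was thus higher in every neutrophil array than in any monocyte array. The part of either list in these levels was not tested.

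**Figure D4:**
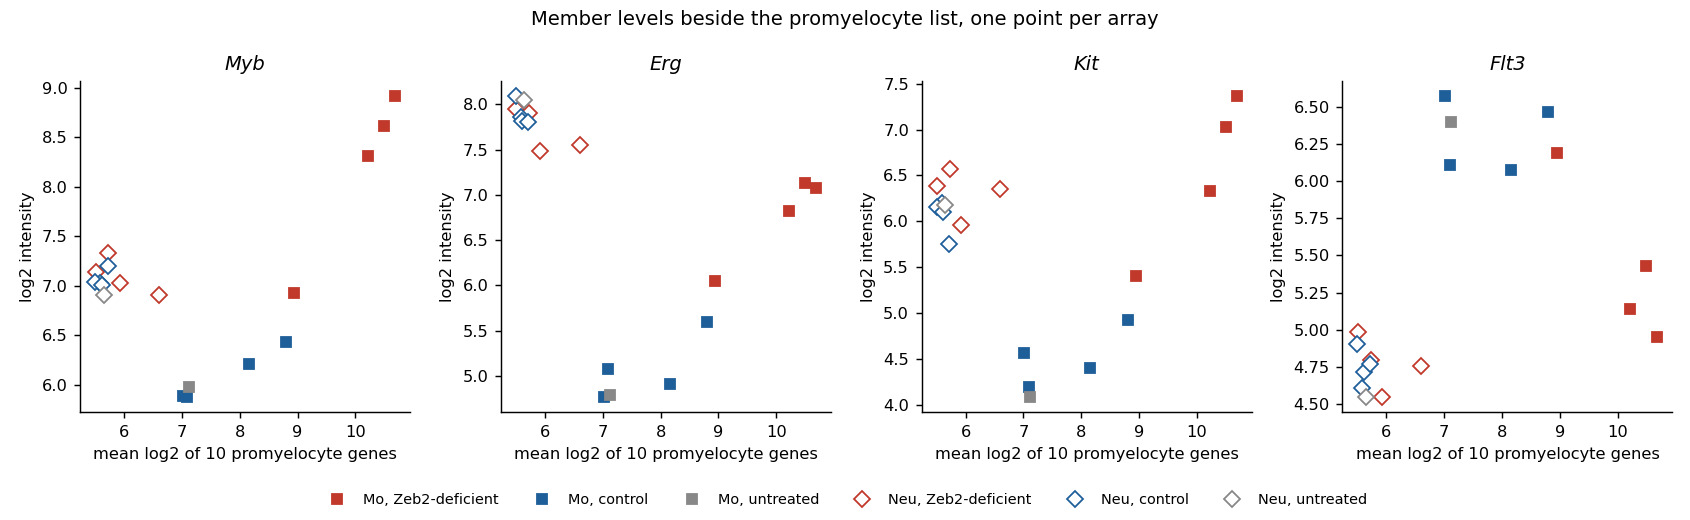
Log2 intensity of Myb, Erg, Kit and Flt3 (y axes) beside the mean log2 intensity of 10 promyelocyte genes (x axes), 1 point per array, with filled squares for monocytes and open diamonds for neutrophils. Among monocyte arrays high list means (8.94 to 10.7 in Zeb2-deficient samples) lie with high Myb, Erg and Kit, while neutrophil arrays (5.50 to 6.60) have high Erg beside a low list mean.

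Markers of other cells known for these members were mixed. Mast cells and basophils carry Kit and Gata2, and their list mean was 3.95 to 4.50 in Zeb2-deficient and 3.82 to 4.11 in control monocytes. Of 5 tested genes of that list 1 was higher in Zeb2-deficient monocytes, Hdc, the histamine-forming enzyme, at 6.73 ± 0.54 in Zeb2-deficient and 5.39 ± 0.51 in control monocytes (SD, n = 4 each; limma, adjusted p = 0.00127). Neutrophils had far more Hdc, at 10.62 in Zeb2-deficient and 10.72 in control samples, so Hdc was not particular to mast cells and basophils here. Mcpt8, a basophil protease, read 6.09 ± 1.26 in Zeb2-deficient and 4.68 ± 0.36 in control monocytes (SD). It did not pass (limma, adjusted p = 0.0646), and Slc18a2 read 4.80 and 4.65 in these monocyte groups. Without deficient replicate 2, 2 of the 5 tested genes of the list were higher. Of the list's other genes, Prss34 and Tpsb2 were tested and did not pass. Cpa3, Fcer1a, Ms4a2, Cma1 and Tpsab1 were below the 40th percentile on every array, and Il4 on every monocyte array. Genes this dim do not show whether such cells were present. The part of these markers in the difference of Kit was not tested. Endothelial cells carry Erg, Cd34 and Cd93. Of 5 tested endothelial genes 0 passed, the list mean was 3.91 to 4.05 in Zeb2-deficient and 3.90 to 4 in control monocytes, and Kdr, Tek, Emcn, Sox17 and Ramp2 were below it on every array. Conventional dendritic cells carry Flt3, which is itself 1 of the 8 tested genes of that list. Of those 8, 3 were lower in Zeb2-deficient monocytes, and Flt3 was 1 of these 3. The list means, which also include Flt3, were 5.22 to 5.59 in Zeb2-deficient and 5.64 to 5.99 in control monocytes. Cd74, H2-Ab1 and H2-Aa were the brightest of the list, named for their level and not for a change.

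Of the remaining lists in monocytes, plasmacytoid dendritic cell genes gave 1 higher and 1 lower of 5, erythroid genes 1 higher of 5, eosinophil genes 1 higher of 4, and megakaryocyte (7 tested), B cell precursor (4) and T and NK cell (4) genes 0. Over all genes tested, 7.54% passed in monocytes. In Zeb2-deficient neutrophils all 13 marker lists gave 0 changes, where 0.120% of all genes tested passed. At that share, lists of this size would seldom hold a call.

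The genes most like each member over the 18 arrays were named by Pearson's r, as a description, since arrays share cell type and genotype. Erg was closest to Syne1 (0.995), Rflnb (0.994) and Cyfip2 (0.992). Myb was closest to Gfi1 and Siglecg (0.963 each) and Far2 (0.962), and Kit to Ankrd28 (0.966), Lta4h (0.962) and Olr1 (0.954). Flt3 was closest to Lifr (0.975), Abca6 (0.97) and Tbc1d5 (0.968). Cd93 lay closest to Rrbp1 (0.975), Runx1 to Gcfc2 (0.931), Gata2 to Col1a1 (0.915), Meis1 to Tmem51 (0.902), Hoxa9 to Trim6 (0.884) and Cd34 to Abca1 (0.776). Among members, Myb and Kit had r = 0.882, Erg and Kit 0.833, Myb and Erg 0.553, and Erg and Flt3 -0.939. Over the 9 monocyte arrays alone the values were 0.986, 0.972, 0.976 and -0.871 in that order of pairs, and over the 9 neutrophil arrays alone 0.181, 0.222, 0.177 and 0.383.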

How the data were processed

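The authors deposited log2 intensities per probe set, summarised with RMA per the submitters' processing notes, and the software behind RMA is not given in the sources used here. Per the labels' protocols, RNA came from an RNAqueous-Micro kit and the Ovation PicoSL kit made the targets. Of 30177 probe sets, 21789 had 1 symbol and entered the analysis, 1621 had several and 6767 had none. The brightest probe set of a gene was kept. Genes above the array's 40th percentile on at least 4 of 18 arrays were tested (13387). Array medians ran from 4.81 to 4.92, no arrays were identical, and the number of arrays limits the precision.

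A group-means model over all 18 arrays was fitted with limma 3.58.1 in R 4.3.3 (variance trend, 12 residual degrees of freedom). The test is two-sided, with Benjamini-Hochberg adjustment over all genes tested in each of 5 contrasts and a threshold of 0.05. The fit was tested on simulated data. Untreated arrays entered no contrast. Alternatives were quantile or median scaling, no filter or a stricter one, the mean of probe sets, only the arrays compared, replicate number or array set as a block, each set alone, no trend, robust variance priors, array weights, and each array left out.

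The members and lists were chosen with earlier results of these data known. The 19 lists held 240 symbols. Genes named are the members and, per related list and comparison, up to 4 called genes with the largest change or otherwise 2 with the smallest p. For marker lists the 3 brightest are named, for each member its 3 closest genes by r (1 for the dimmer ones in the text), and genes named for being dim on every array were chosen after their values were seen. Promoters are RefSeq's, on GRCm38.p6.

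The replicate numbers come from the labels. Deviations from group means of Zeb2-deficient and control arrays with the same number correlated at 0.183 to 0.428 in 6 of 6 pairs, above the threshold of 0.1 set for pairing. Differently numbered arrays of the same array set correlated at 0.127 to 0.348, and those of different sets at -0.344 to -0.085. Monocyte and neutrophil arrays of the same genotype and number correlated at 0.0591 to 0.259 over 8 pairs, so not all were above that threshold. Differently numbered ones of the same set correlated at 0.123 to 0.237.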

Additional observations from a re-analysis of the deposited data

Results flagged for a closer look

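In control neutrophils, Myb in replicate 5 (7.199) stood apart from the other 3 arrays, which lay within 7.004 to 7.04. Chance flags about 1 in 20 groups, and 40 groups of 4 arrays were looked at for the 10 members.

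The genotype difference in monocytes exceeded that in neutrophils, by a test of the difference itself, for Myb by 2.06, for Erg by 1.85 and for Kit by 1.74 (limma, adjusted p = 0.00758, 0.00221 and 0.0283).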

How the results depend on the processing

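Calls of Myb, Erg and Kit in monocytes held in 29 of 29 alternatives (differences of 1.74 to 2.51, 1.52 to 1.92 and 1.48 to 2.53). No called member changed sign. The count of 3 members whose change differed between cell types was 0 within array set 1, where the adjusted p was 0.290 for Myb, 0.0814 for Erg and 0.322 for Kit, and it was 3 within array set 2, with as many arrays compared. It ran from 2 to 5 with each array left out, highest without Zeb2-deficient monocyte replicate 2. With the replicate block the counts were unchanged (4 in monocytes, 0 in neutrophils, 3 for the difference between them, 8 and 6 between cell types), and Kit's difference between changes had an adjusted p of 0.0299. The block changed no member's call, although number 3 holds no treated control and number 5 no Zeb2-deficient array. Neither number thus holds a genotype comparison. Over all genes, leaving out single arrays moved the number passing in monocytes from 1010 to between 620 and 2001, and for the difference between cell types from 359 to between 245 and 904. The cause was not tested. Hoxa9, Meis1, Gata2, Cd34 and, in control monocytes, Kit lie near the dim end of the arrays, which limits what their differences can show.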
